A study of Drosophila melanogaster with 44 samples.

Results

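Df(3R)ED7665, called ED7665 here, is a deficiency on the right arm of chromosome 3 (3R) of Drosophila melanogaster, that is, a chromosome that lacks a run of neighbouring genes. Carriers were the arrays whose genotype label holds ED7665, and they make up 7 of the 44 arrays of the study. Each array was hybridised with RNA of 15 pooled whole adult females, 0 to 24 h old, grown at 25 °C. There were 2 arrays of Df(3R)ED7665/+, which the labels call biological replicates. The other 5 carrier arrays held ED7665 with a further heterozygous deficiency, 1 array each. On chromosome 2 the further deficiency was Df(2L)ED3/+, Df(2L)ED4559/+, Df(2R)ED1770/+ or Df(2R)ED1612/+, and on the other chromosome 3 it was Df(3R)ED10953. The 37 non-carriers were 6 wild-type arrays, 17 arrays of flies with 1 of the other 6 deficiencies and 14 arrays of flies with 2 of them. No ED7665 array carried Df(3R)ED5071, the remaining deficiency of the study. The labels name no strain background for the wild type or the deficiencies.

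A fly heterozygous for a deficiency has 1 copy of every gene in the missing segment and 2 copies of the rest of the autosomes. Without any adjustment, a gene in such a segment would give 50% of its normal mRNA. Dosage also matters beyond the segment, since a reduced amount of a transcription factor, enzyme or complex subunit can alter genes elsewhere in the genome.

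The deposited values ran from 2.58 to 14.66 on the log2 scale, array medians from 5.5 to 5.73, and correlations between arrays from 0.95 to 0.9969. A gene was tested where its mean over all arrays was at least 6, which 7485 of 11889 genes reached. Of these, 292 lie in the 7 deleted intervals and 7193 outside them. Yp2, a yolk protein made by female fat body and ovary, lay between 12.85 and 13.95 in the 7 carriers and between 13.08 and 14.30 in wild type. All 3 male accessory gland markers were measured, none reached the filter, and their median in the carriers was 3.67. These levels match the label of females. In whole flies, fewer cells of a type and less RNA per cell cannot be told apart.

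The labels number the arrays, and the numbers are not spread evenly over the genotypes. Wild type holds numbers 1 to 6, and 19 arrays of other deletions are numbered from 7 to 26, called the earlier deletion arrays below. All 7 ED7665 arrays are numbered from 27, as are 12 non-carriers: the 7 ED5071 carriers and the arrays labelled replicate 3 of 5 other single deletions, called replicate 3 arrays. What the numbers stand for is not given in the labels. Each comparison is therefore given from an additive fit, with 1 term per deletion, and from the same fit with a term for the array-number group (up to 26, or from 27). The ED5071 and ED7665 arrays have terms of their own, so the group term rests on the 5 replicate 3 arrays. That fit thus sets the ED7665 carriers against the level of these 5 arrays, after allowing for the other deletions.

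A group of arrays also stood apart in a region outside every deleted interval. Of the 19 arrays numbered from 27, the 7 single-deletion arrays numbered from 36 were low in 10 neighbouring genes of 3R, from BOD1 to larp. The group includes mfrn, a mitochondrial iron importer, Gp93, an endoplasmic reticulum chaperone, betaTub97EF, a beta tubulin, and larp, an RNA-binding regulator of translation. Their median relative to wild type lay between -0.74 and -0.56 in these 7 arrays (mean -0.65 ± 0.07, SD, n = 7, or 63.9% of the wild-type level) and between -0.27 and 0.12 in the other 37. One of the low arrays was replicate 2 of Df(3R)ED7665/+, at -0.56, while the 6 other carriers lay between -0.01 and 0.12. For larp, replicate 2 gave 9.98 and the 6 other carriers 10.71 to 10.91. The labels name no deletion there. Counts from the additive fit are also given below without these 7 arrays. All replicate 3 arrays are among the 7, so the fit with the array-number group cannot be run without them.

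**Figure D1:**
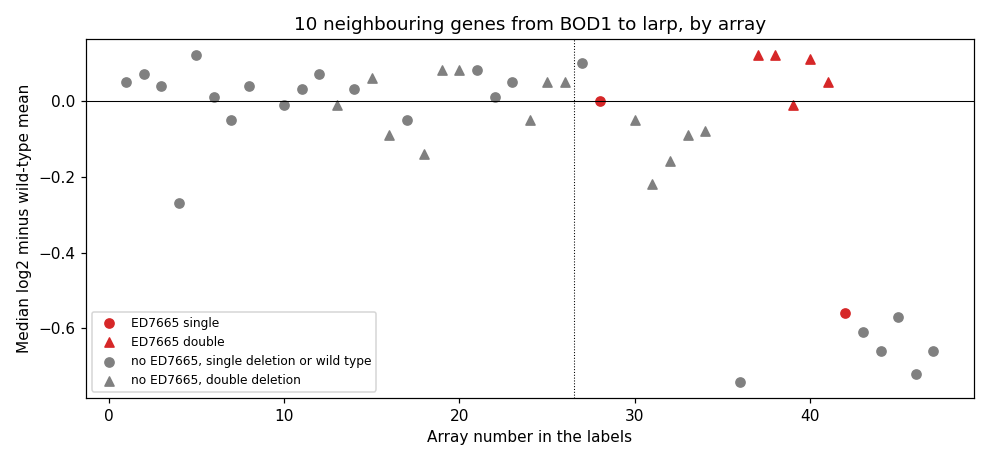
Median log2 value minus the wild-type mean over 10 neighbouring genes from BOD1 to larp (vertical axis) against the array number in the labels (horizontal axis); red symbols are ED7665 carriers, grey symbols the other arrays, triangles flies with 2 deletions, and the dotted line separates numbers up to 26 from numbers from 27. The 7 single-deletion arrays numbered from 36, 1 of them an ED7665 array, lie at or below -0.56 and the other 37 at or above -0.27.

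The ED7665 interval was mapped from these data as the run of low genes on 3R from Alh to CG7910, so its depth is a description and was not tested. It held 108 measured genes, of which 51 passed the filter and 57 did not. The 7 carriers gave medians over the 51 genes of -0.86 and -0.84 for the 2 single-deletion arrays, and of -0.79, -0.82, -0.95, -0.90 and -0.95 with ED4559, ED10953, ED1770, ED1612 and ED3. Their mean was -0.87 ± 0.06 (SD, n = 7), or 54.6% of wild type. The 37 non-carriers lay between -0.37 and 0.18, with no overlap, and the lowest was wild-type replicate 4. Single carriers (-0.85 ± 0.02, n = 2) lay within the range of double carriers (-0.88 ± 0.07, n = 5). Without replicate 2, the array low from BOD1 to larp, the mean was -0.88 ± 0.06 (n = 6).

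Interval genes differed among themselves around this level. The ED7665 coefficient, the difference from flies with 2 copies after allowing for the other deletions, had a median of -0.88, or 54.1%, and was below 0 for all 51 genes. It was at or below -1 for 15, between -1 and -0.3 for 35 and above -0.3 for 1. In 29 of the 51 genes every carrier lay below every non-carrier, against 0 of 7193 genes outside the intervals (0.0%). The interval was mapped from the same values, so nothing is read from this count. With the array-number group the median was -0.96, and over all measured genes, dim ones included, it was -0.62.

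**Figure D2:**
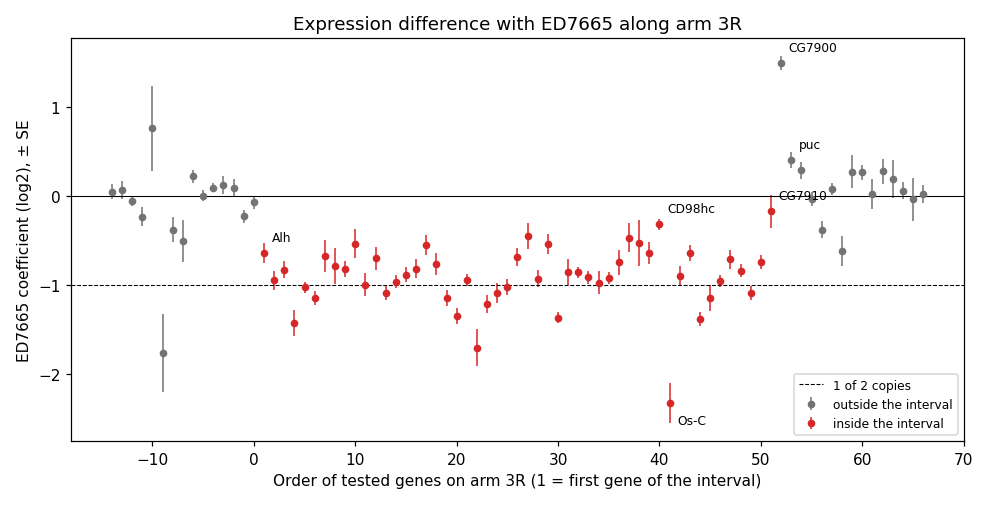
ED7665 coefficient (log2, vertical axis, points, with its standard error as bars) of tested genes in their order along arm 3R (horizontal axis, 1 is the first gene of the interval); red points lie inside the mapped interval and grey points outside, and the dashed line marks 1 of 2 copies. Red points run from -0.17 at CG7910 to -2.32 at Os-C, and CG7900, next to the distal end, stands at 1.49.

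The interval holds a cluster of alpha-esterases, carboxylesterases that act on ester-bearing metabolites and insecticides. Of 8 measured, 7 passed the filter, with coefficients from -1.71 to -0.55. alpha-Est2 was lowest at -1.71, or 30.6%, and moved to -0.97 with the array-number group; its carriers lay between 6.86 and 7.75, ED5071 carriers between 7.49 and 8.94 and wild type between 8.08 and 9.85. alpha-Est5 stood at -1.35 and alpha-Est9 at -0.55. Other enzymes in the interval were sgll, a pyridoxine phosphate oxidase (-1.37, or 38.7%), pyd3, a beta-ureidopropionase of pyrimidine breakdown (-1.21, or 43.1%), and Prat, which starts purine synthesis (-0.75, or 59.5%). Prat stood at -1.16 with the array-number group. The mitochondrial genes mRpS9, a ribosomal protein (-0.92), and ArgRS-m, an arginyl-tRNA synthetase (-0.86), and the muscle genes Mlp84B, a LIM protein of the sarcomere (-0.95), and unc-45, a myosin chaperone (-0.74), lay close to the median.

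Os-C, a gene first found in antennae, had the largest coefficient. Its 7 carriers gave 6.20, 6.77, 6.66, 6.14, 6.77, 6.14 and 6.30, wild type 8.02 to 9.59 with a median of 9.12, and the lowest non-carrier 7.32. The carriers thus lay apart from all others, at -2.32 ± 0.22 (SE), or 20% of the level with 2 copies. CG31248 (-1.43 ± 0.15, 37.1%) and CG2767 (-1.38 ± 0.08, 38.3%) were next after alpha-Est2, and none of their carriers overlapped a non-carrier.

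At the other end, CD98hc, the heavy chain of amino acid transporters, stood at -0.32 ± 0.06, or 80.0%, and at -0.54 with the array-number group. Its carriers lay between 10.20 and 10.43, just below wild type at 10.45 to 11.03. kipf, a zinc-finger gene of the germline piRNA pathway, stood at -0.47 ± 0.17 and moved to -1.04 with the array-number group. CG18748 stood at -0.45 ± 0.14, and at -0.69 with the array-number group, and its carriers (6.38 to 6.84) overlapped the non-carriers. CG7910, the last gene of the interval, had the smallest difference at -0.17 ± 0.19. Its carriers averaged 8.93 and wild type 8.83, so it was not reduced against wild type. Its place in the interval rests on the mean of all non-carriers (9.25), raised by the 12 numbered from 27 (9.87). Its carriers (8.43 to 9.23) overlapped wild type (8.52 to 9.13) and lay below all ED5071 carriers (9.41 to 10.24) and replicate 3 arrays (9.29 to 10.52), and its coefficient was -1.0 with the array-number group.

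Among the regulators in the interval, doublesex (dsx), the transcription factor at the end of the sex determination cascade, gave 7.88, 8.30, 7.87, 7.84, 8.07, 8.54 and 8.06 in the carriers and 7.52 to 9.0 (median 8.80) in wild type. The groups overlapped, and the coefficient was -0.64 ± 0.13, or 64.0%. Alh, a PHD-finger chromatin protein and the first gene of the interval, stood at -0.64 ± 0.11. Gld, glucose dehydrogenase, and alphaTub84D, an alpha tubulin, were too dim to be tested. The carriers of alphaTub84D lay between 4.46 and 4.84, below wild type at 5.31 to 5.66, and those of Gld at 3.79 to 4.75, overlapping wild type at 4.46 to 5.12.

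Of the 3 tested genes beyond the proximal end, Ref1, an mRNA export adaptor (0.09 ± 0.10, adjusted p = 0.554), and Tailor, a terminal uridylyltransferase (-0.07 ± 0.07, adjusted p = 0.475), did not pass. Dpck, a dephospho-CoA kinase, stood at -0.23 ± 0.08 (adjusted p = 0.0307) and at -0.03 with the array-number group. Antp, the homeotic gene proximal of them, did not pass (-0.38 ± 0.14, adjusted p = 0.0553). Beyond the distal end, CG7900 was higher in every carrier, as described below. After it came puc, the phosphatase that restrains JNK signalling, at 0.41 ± 0.09 (adjusted p = 0.00447), and CG7878 at 0.29 ± 0.09 (adjusted p = 0.0322). With the array-number group neither passed (0.14 and -0.07, adjusted p = 0.999 for both).

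Outside the deleted intervals the number of genes that changed with ED7665 depended on the array-number group. In the additive fit 1355 of 7193 genes passed an adjusted p of 0.05 (18.8%), 630 higher (8.76%) and 725 lower (10.1%), and 2461 had an unadjusted p under 0.05 (34.2%). With the array-number group 20 passed (0.278%), 13 higher (0.181%) and 7 lower (0.0973%), and 325 had an unadjusted p under 0.05 (4.52%). With a further term for the 7 arrays low from BOD1 to larp, 1 passed, and 60 had an unadjusted p under 0.05. All replicate 3 arrays are among these 7, so only replicate 2 of ED5071 and of ED7665 tells the 2 terms apart. The fall in calls in that fit is thus not read as a result. Among the 19 arrays numbered from 27 alone, 4 passed (0.0556%), which were CG7900, higher, and CG12493, CG3552 and CG18180, lower, and 571 had an unadjusted p under 0.05 (7.94%). The median size of the 1355 additive coefficients fell from 0.36 to 0.07 once the array-number group was in the fit, and 1177 of them shrank below 1 in 2 of their size. Without the 7 arrays low from BOD1 to larp, 2265 genes passed in the additive fit (31.5%), 1170 higher (16.3%) and 1095 lower (15.2%), among them 1346 of the 1355, and 3013 had an unadjusted p under 0.05 (41.9%). Leaving out ED7665 with ED1612, ED7665 with ED1770 or replicate 2 of the single deletion gave 672, 874 and 902.

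By chromosome arm, the additive calls were spread over the genome, with 19.6% of tested genes on 2L, 18.2% on 2R, 22% on 3L, 16.6% on 3R, 17.3% on X and 19 of 51 on chromosome 4 (37.3%). Of the 20 genes that passed with the array-number group, 17 lie on chromosome 3, which holds 44.3% of the tested genes, 2 on chromosome 4, 1 on X and 0 on chromosome 2. On 3R, 6 of these 20 are BOD1, mfrn, Gp93, Nep7, CG4884 and larp of the region low in 7 arrays, with coefficients from 0.63 to 0.84. None of these 6 passed in the additive fit, and without the low region 11 of 14 calls lie on chromosome 3.

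**Figure D3:**
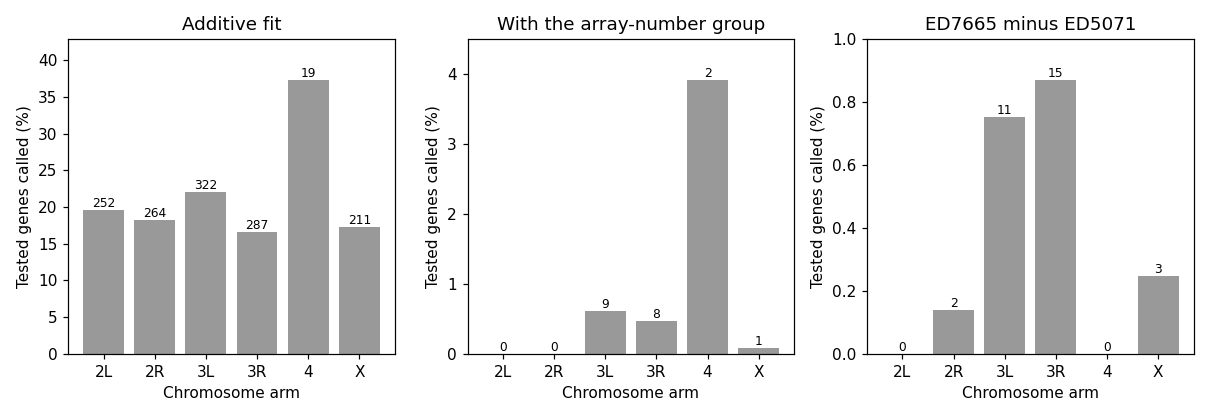
Share of tested genes outside the intervals that passed an adjusted p of 0.05 (percent, vertical axis, each panel with its own scale) by chromosome arm (horizontal axis), for the additive ED7665 coefficient, the same with the array-number group, and ED7665 minus ED5071; the figure over each bar is the number of genes. The additive calls reach 37.3% on chromosome 4, and in the other panels 2L holds 0 calls.

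In both fits and in the same direction, 10 genes passed (0.139%), 8 of them on chromosome 3 and 2 on chromosome 4. CG7900, the first gene distal of the interval, was the clearest. Its carriers gave 9.27, 9.50, 9.52, 9.32, 9.37, 9.54 and 9.41, ED5071 carriers 8.07 to 8.56, replicate 3 arrays 7.91 to 8.29, earlier deletion arrays 7.54 to 8.29 and wild type 7.60 to 8.07. All carriers lay above all 37 non-carriers, and CG7900 was the 1 gene of 7193 outside the intervals (0.0139%) of which this was true, while 0 genes (0.0%) lay below in every carrier. Its coefficient was 1.49 ± 0.08, a 2.81-fold difference (adjusted p = 7.05e-18), 1.36 ± 0.10 with the array-number group (adjusted p = 3.19e-12) and 1.36 among arrays numbered from 27 (adjusted p = 1.09e-07). It passed in all 66 alternative settings that were run, arrays left out in turn included.

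**Figure D4:**
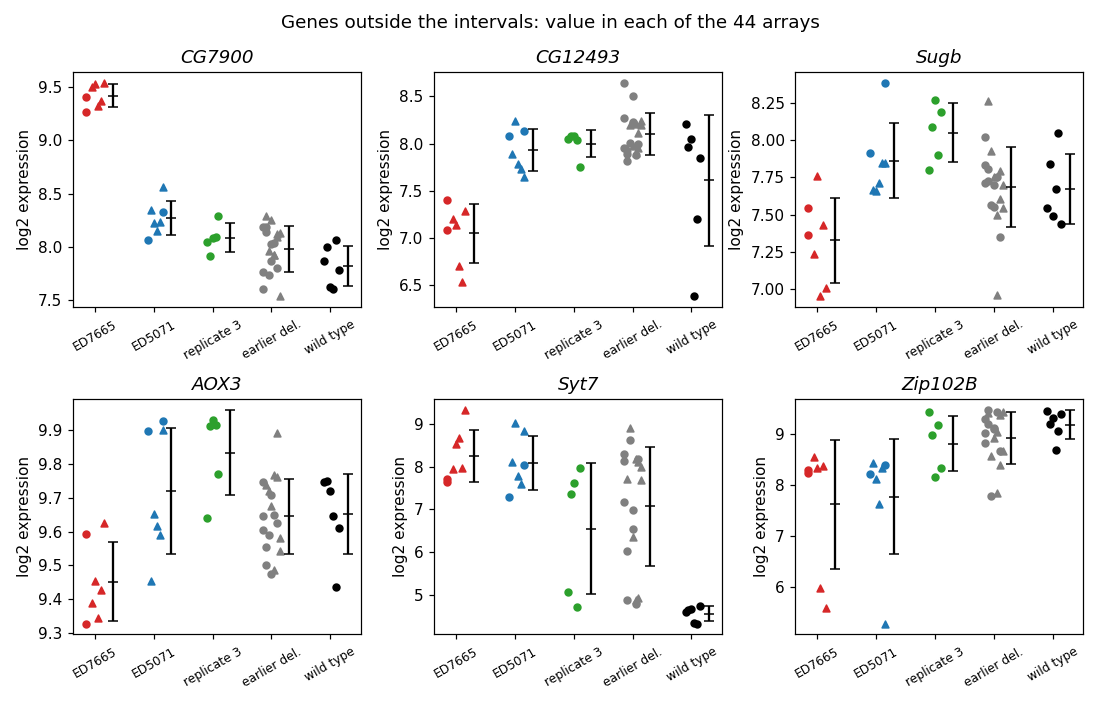
Log2 expression (vertical axis) of 6 genes in each of the 44 arrays by group (horizontal axis): ED7665 carriers, ED5071 carriers, replicate 3 arrays of 5 other single deletions, earlier deletion arrays and wild type; circles are wild-type or single-deletion arrays, triangles arrays with 2 deletions, and bars the mean and SD. CG7900 separates the ED7665 carriers from all others, CG12493 separates them from all other deletion arrays, and for Syt7 and Zip102B the ED7665 and ED5071 carriers overlap.

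CG12493 on 3L was lower in the carriers, at 7.09, 7.20, 7.13, 6.71, 6.54, 7.29 and 7.40, against 7.65 to 8.24 in ED5071 carriers, 7.75 to 8.08 in replicate 3 arrays and 7.82 to 8.65 in earlier deletion arrays. The carriers lay below all 31 other deletion arrays, and overlapped wild type (6.38 to 8.21), where 2 of the 6 arrays were as low. The coefficient was -0.89 ± 0.15 (adjusted p = 0.000448), -0.91 ± 0.21 with the array-number group (adjusted p = 0.0348) and -1.02 among arrays numbered from 27 (adjusted p = 0.00316).

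Sugb (sugar baby) gave 7.36, 7.23, 7.76, 6.95, 7.43, 7.01 and 7.54 in the carriers and 7.80 to 8.27 in replicate 3 arrays, with overlap in the other groups. Its coefficient was -0.44 ± 0.11 (adjusted p = 0.00701), and -0.74 ± 0.14 with the array-number group (adjusted p = 0.00481). AOX3, an aldehyde oxidase, was lower by a smaller amount, with carriers at 9.33, 9.39, 9.45, 9.34, 9.43, 9.62 and 9.59 and replicate 3 arrays at 9.64 to 9.93. The carriers overlapped ED5071 carriers (9.45 to 9.93), earlier deletion arrays (9.48 to 9.89) and wild type (9.44 to 9.75). Its values were -0.23 ± 0.06 (adjusted p = 0.00777) and -0.38 ± 0.07 (adjusted p = 0.00516). CG32485 stood at -0.24 ± 0.07 (adjusted p = 0.0138) and -0.42 ± 0.09 (adjusted p = 0.0164).

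CG3552 was lower with ED7665 (7.12 to 7.80) than in wild type (7.70 to 8.24), replicate 3 arrays (7.79 to 8.30) and earlier deletion arrays (7.39 to 8.20), with 1 carrier inside each of the first 2 ranges and 3 carriers inside the last. Its coefficient was -0.48 ± 0.08 (adjusted p = 0.00032), and -0.56 ± 0.11 with the array-number group (adjusted p = 0.00536). The ED5071 carriers were at a like level, 7.30 to 7.55, and overlapped the ED7665 carriers.

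The largest coefficients among the 10 belonged to the 2 genes on chromosome 4 and to CG7900. Syt7, a synaptotagmin, gave 7.70, 7.94, 8.52, 8.66, 7.97, 9.33 and 7.64 in the carriers and 4.33 to 4.74 in wild type, with no overlap. ED5071 carriers lay between 7.28 and 9.02, replicate 3 arrays between 4.71 and 7.97 and earlier deletion arrays between 4.79 and 8.91. The other deletions thus covered nearly the whole range. Its coefficient was 2.20 ± 0.31 (adjusted p = 5.01e-05), and 2.05 ± 0.43 with the array-number group (adjusted p = 0.0182).

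Zip102B, a zinc transporter, was lower, at 8.23, 8.55, 8.34, 5.97, 8.38, 5.58 and 8.29 in the carriers against 8.70 to 9.46 in wild type. The carriers with ED1770 and ED3 lay more than 2 units below the other 5, and 1 ED5071 carrier was as low (5.28 to 8.44 in that group). The other 5 ED7665 carriers lay inside the ranges of replicate 3 arrays (8.16 to 9.43) and earlier deletion arrays (7.79 to 9.48). The Zip102B carriers were thus apart from wild type only. The Zip102B coefficient was -1.45 ± 0.20 (adjusted p = 5.01e-05), and -1.28 ± 0.28 with the array-number group (adjusted p = 0.0252). The 2 other genes that passed in both fits were higher: l(3)72Dr, with carriers at 7.11 to 7.95 and replicate 3 arrays at 6.53 to 6.85 (0.48 ± 0.12, adjusted p = 0.00777), and CG40298, with carriers at 6.43 to 7.41 and replicate 3 arrays at 4.74 to 6.71 (0.52 ± 0.16, adjusted p = 0.0212). The l(3)72Dr carriers overlapped ED5071 carriers (7.16 to 8.11), earlier deletion arrays (6.11 to 7.65) and wild type (6.65 to 7.48), and its coefficient was 0.73 with the array-number group. The CG40298 carriers overlapped replicate 3 arrays, ED5071 carriers (6.51 to 7.78), earlier deletion arrays (5.66 to 7.29) and wild type (5.56 to 6.76). Its coefficient was 0.90 with the array-number group and -0.25 among single-deletion and wild-type arrays with the replicate block.

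Several large additive coefficients belonged to genes that did not pass with the array-number group. Jon99Fi, a serine protease of the midgut, gave 12.31, 12.19, 10.99, 12.83, 12.62, 12.19 and 12.53 in the carriers, 11.24 to 12.71 in replicate 3 arrays, 4.92 to 12 in earlier deletion arrays and 5.12 to 12.15 in wild type. It moved from 2.39 ± 0.79 (adjusted p = 0.0313) to 0.11 ± 0.96 (adjusted p = 0.999). CG5550 moved from 2.12 to 0.70, while Sgp kept its size, at 1.88 and 2.20, and lost the call (adjusted p = 0.0195 and 0.567). Among the falls, CG13962 moved from -2.08 to -0.43, CG43133 from -2.0 to -0.33 and CG15369 from -1.98 to -0.14 (adjusted p = 0.999 for each with the array-number group).

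Gene groups were read from 39 lists, given here as members that passed out of those tested outside the intervals, beside 630 higher and 725 lower of 7193 genes and a median of 0.02 over all genes. In the additive fit 33 lists held at least 1 call, with the array-number group 3 did, and among arrays numbered from 27 none did. The 3 calls were Gp93, of endoplasmic reticulum folding and of the region low in 7 arrays, Eip63E, an ecdysone-induced kinase (0.69 ± 0.14, adjusted p = 0.0119), and Zip102B, of iron and zinc handling. The lists below are thus given with both medians.

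**Figure D5:**
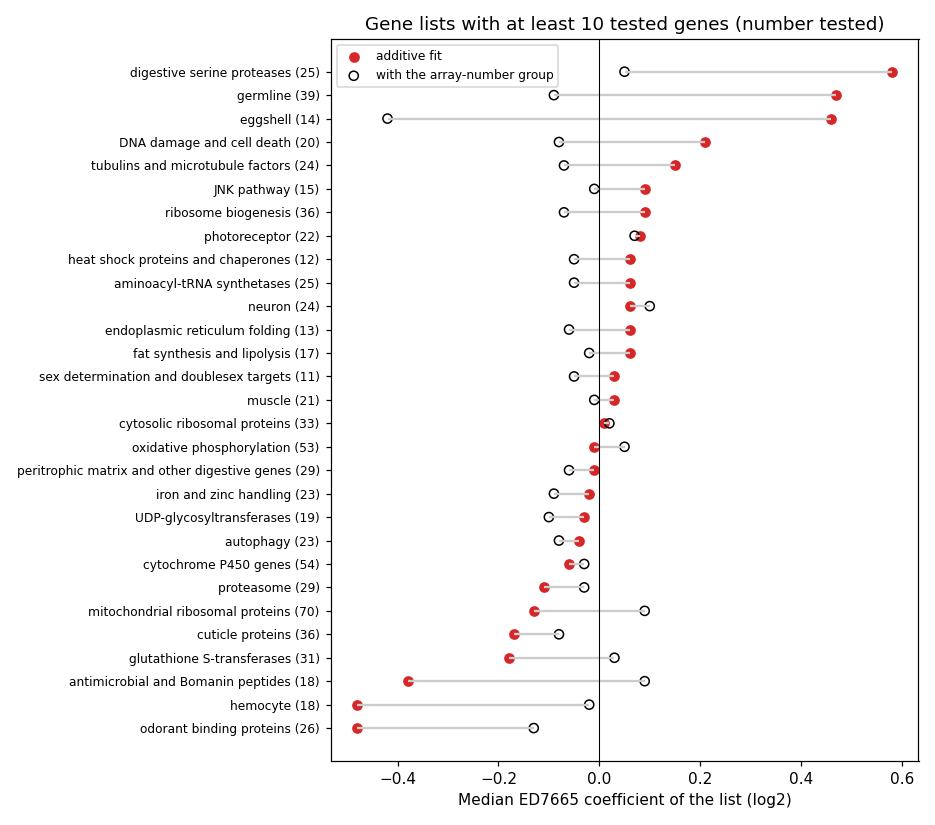
Median ED7665 coefficient (log2, horizontal axis) of each list with at least 10 tested genes (vertical axis, number tested in brackets), from the additive fit (red) and with the array-number group (open circles). Digestive serine proteases move from 0.58 to 0.05 and odorant binding proteins from -0.48 to -0.13.

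Of digestive serine proteases, 11 of 25 were higher and 0 lower in the additive fit, with a median of 0.58, and 0 passed with the array-number group, with a median of 0.05. Their mean over the list, relative to wild type, lay between 0.79 and 1.32 in ED7665 carriers, 0.30 and 1.07 in ED5071 carriers, 0.73 and 1.28 in replicate 3 arrays, -0.68 and 0.95 in earlier deletion arrays and -0.95 and 0.99 in wild type. The 3 groups numbered from 27 thus overlapped. Jon65Ai moved from 1.81 (adjusted p = 0.0324) to 0.20, and epsilonTry, a trypsin, from 1.54 (adjusted p = 0.015) to 0.23.

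Of mitochondrial ribosomal proteins, 23 of 70 were lower and 1 higher, with medians of -0.13 and, with the array-number group, 0.09. Their list mean lay between -0.42 and 0.01 in ED7665 carriers, -0.37 and -0.15 in ED5071 carriers, -0.47 and -0.26 in replicate 3 arrays and -0.35 and 0.06 in earlier deletion arrays. mRpL51 moved from -0.38 (adjusted p = 0.0116) to 0.12, and mRpS33 from -0.37 (adjusted p = 0.0105) to 0.05. Cytosolic ribosomal proteins held 2 higher and 1 lower of 33 (medians 0.01 and 0.02). Oxidative phosphorylation held 2 higher and 1 lower of 53 (medians -0.01 and 0.05). Of proteasome genes, 4 of 29 were lower and 1 higher (medians -0.11 and -0.03), among them Rpn1, a subunit of the regulatory particle (-0.30, adjusted p = 0.0385, and -0.14). None of 12 heat shock proteins and chaperones passed (medians 0.06 and -0.05).

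None of the tested antimicrobial peptide, hemocyte, glutathione S-transferase or cytochrome P450 genes passed with the array-number group. Antimicrobial and Bomanin peptides held 6 lower and 0 higher of 18 (medians -0.38 and 0.09). DptB, a diptericin, moved from -1.22 (adjusted p = 0.0481) to -0.20, and Drsl3, a drosomycin-like peptide, from -1.35 (adjusted p = 0.0135) to -0.98. Drsl2 moved from -0.75 (adjusted p = 0.0243) to -0.44. Of hemocyte genes, 10 of 18 were lower and 1 higher (medians -0.48 and -0.02), and the Nimrod receptors went both ways. NimC2 and NimC4 stood at -0.95 each (adjusted p = 0.00621 and 0.0174) and NimC3 at 0.77 (adjusted p = 0.0033), and the array-number group brought them to -0.27, -0.01 and 0.08. Glutathione S-transferases held 8 lower and 0 higher of 31 (medians -0.18 and 0.03), GstD10 moving from -0.89 (adjusted p = 0.0089) to 0.02 and GstE4 from -0.86 (adjusted p = 0.0108) to -0.44. Cytochrome P450 genes held 7 higher and 3 lower of 54 (medians -0.06 and -0.03). Cyp4e1 stood at 0.57 (adjusted p = 0.0033) and Cyp309a1 at -0.96 (adjusted p = 0.0105), and at 0.28 and -0.01 with the array-number group.

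Odorant binding proteins held 13 lower and 1 higher of 26 (medians -0.48 and -0.13). Obp19a moved from -1.10 (adjusted p = 0.00573) to -0.47, Obp83b from -1.01 (adjusted p = 0.00715) to -0.43, and Obp99b, which is also found in fat body, from -1.69 (adjusted p = 0.0463) to 0.45. All 3 larval fat body genes tested were lower (medians -1.64 and 0.38). Of these, Lsp2, a larval storage protein, moved from -1.55 (adjusted p = 0.0256) to 0.27 and Fbp2 from -1.84 (adjusted p = 0.0366) to 0.41. The list mean of larval fat body genes ranged from -3.93 to -0.50 in ED7665 carriers, from -6.94 to -0.31 in replicate 3 arrays and from -1.91 to 0.66 in earlier deletion arrays. Cuticle proteins held 5 lower of 36 (medians -0.17 and -0.08). Cpr49Ac moved from -1.89 (adjusted p = 0.00942) to 0.01, and Lcp65Ac, a larval cuticle protein, was at -0.72 (adjusted p = 0.0067) and -0.78 (adjusted p = 0.352).

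Germline genes held 6 higher and 0 lower of 39, with medians of 0.47 and -0.09. orb, a regulator of oocyte mRNA translation, moved from 0.74 (adjusted p = 0.0327) to -0.05, and piwi, of the piRNA pathway, from 0.64 (adjusted p = 0.0197) to -0.20. The shorter list of 6 measured germline markers stood at 0.11 to 0.72 relative to wild type in ED7665 carriers, -0.39 to 0.76 in ED5071 carriers, 0.26 to 0.90 in replicate 3 arrays, -0.55 to 0.15 in earlier deletion arrays and -0.63 to 0.74 in wild type. Late follicle cell markers (9 measured) ranged from -2.85 to 3.13 in ED7665 carriers and from -3.19 to 4.67 in wild type, and none of 14 eggshell genes passed (medians 0.46 and -0.42). With the germline list mean as a covariate in the additive fit, 1805 genes passed, 832 higher and 973 lower, against 1355 without it. The part of ovary content in each of the gene lists was not tested. Neuron genes held 6 higher and 4 lower of 24 (medians 0.06 and 0.1). Among them nSyb, the neuronal synaptobrevin, moved from -0.77 (adjusted p = 0.0181) to 0.31.

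Dosage compensation factors held 3 higher and 0 lower of 8 (medians 0.22 and -0.06), msl-3, of the complex that acts on the male X, moving from 0.88 (adjusted p = 0.00301) to -0.03. Of iron and zinc genes, 6 of 23 were lower and 1 higher (medians -0.02 and -0.09). MtnB, a metallothionein, moved from -1.34 (adjusted p = 0.00242) to -0.44, and foi, a zinc transporter, from 0.64 (adjusted p = 0.00303) to 0.01. Autophagy genes held 6 lower of 23 and 17 that did not pass (medians -0.04 and -0.08). The kinase Atg1 stood at -0.41 (adjusted p = 0.00882) and its partner Atg17 at -0.87 (adjusted p = 0.00236), and at -0.13 and -0.03 with the array-number group. The JNK pathway held 3 higher of 15 (medians 0.09 and -0.01). Among them were puc, given above, and the kinase hep at 0.30 (adjusted p = 0.00882) and 0.02. Hr38, a nuclear receptor, was at 1.68 (adjusted p = 0.000547) and 0.63 (adjusted p = 0.999), and Desat1, a fatty acid desaturase, at 0.54 (adjusted p = 0.00134) and 0.28 (adjusted p = 0.955).

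The next comparison asked how ED7665 differed from the mean of the 6 other deletions. It shares the carriers and the other deletion arrays with the comparison above. In the additive fit 844 of 7193 genes passed (11.7%), 369 higher (5.13%) and 475 lower (6.6%), and 2154 had an unadjusted p under 0.05 (29.9%). With the array-number group 17 passed (0.236%), 7 higher (0.0973%) and 10 lower (0.139%), and 305 had an unadjusted p under 0.05 (4.24%). Leaving out 1 carrier moved 844 by over 1.5 times in 4 cases: 248 without ED7665 with ED1612, 331 without replicate 2, 469 without ED7665 with ED4559 and 497 without ED7665 with ED1770. Without the 7 arrays low from BOD1 to larp 1639 passed.

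CG7900 rose here (1.36 ± 0.08, adjusted p = 2.01e-16), and CG12493 fell (-1.0 ± 0.15, adjusted p = 0.000121). Falls that passed in both fits and were not named above included mat (-1.18 ± 0.23, adjusted p = 0.00276), with carriers at 6.0 to 7.85 and wild type at 6.45 to 7.78, CG5770 (-0.73 ± 0.15, adjusted p = 0.00329) and Cht4, a chitinase (-0.66 ± 0.15, adjusted p = 0.0078). The carriers of CG5770 (5.35 to 6.14) overlapped wild type (5.44 to 5.79) and lay below all ED5071 carriers (6.62 to 7.45) and replicate 3 arrays (6.15 to 6.55). Cht4 carriers (6.62 to 7.40) likewise overlapped wild type (6.42 to 6.96), with earlier deletion arrays at 6.51 to 8.90. For both genes the carriers overlapped wild type, and most arrays of the other deletions lay above it.

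Flies with 2 deletions allowed a test of whether ED7665 added to the other deletion. The departure of the 5 double carriers from the sum of the single terms passed for 0 of 7193 genes (0.0%) in limma, and 23 had an unadjusted p under 0.05 (0.32%). It was also 0 in every alternative setting that was run. The test rests on 2 single carriers, replicate 2 among them, which was low from BOD1 to larp. In simulated data it recovered fewer planted differences than the additive fit, 31 against 78 at the smaller size and 70 against 98 at the larger. A count of 0 thus does not show that the deletions add.

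All 7 ED5071 carriers and all 7 ED7665 carriers are numbered from 27, and this comparison was added after the data were seen. ED7665 minus ED5071 passed for 31 of 7193 genes (0.431%), 14 higher (0.195%) and 17 lower (0.236%), and 392 had an unadjusted p under 0.05 (5.45%). Centring the arrays on their medians gave 11 higher and 24 lower. With a term for the 7 arrays low from BOD1 to larp 62 passed (0.862%), 26 higher (0.361%) and 36 lower (0.5%), all 31 among them, and without these arrays 30 passed, sharing 21. Leaving out ED7665 with ED1770, ED7665 with ED1612, ED5071 with ED10953 or ED7665 replicate 2 gave 17, 18, 18 and 19. On chromosome 3, which carries both deletions, lay 26 of the 31 genes (83.9%), against 44.3% of the tested genes. The share was 44 of 62 (71.0%) with the term for the 7 arrays and 22 of 30 (73.3%) without these arrays.

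CG7900 differed by 1.14 ± 0.10 (adjusted p = 7.6e-11) and CG12493 by -0.88 ± 0.19 (adjusted p = 0.0129), in both cases with the ED7665 carriers apart from every ED5071 carrier. CHKov1, a choline-kinase-like gene, was lower by -0.79 ± 0.13 (adjusted p = 0.000253), with ED7665 carriers at 10.50 to 10.97 and ED5071 carriers at 11.13 to 11.76, and the wild-type range (10.21 to 11.13) held all ED7665 carriers. It and CG5770 and CG12493 were the 3 genes (0.0417%) in which all ED7665 carriers lay below all 12 other arrays numbered from 27, and CG7900 the 1 gene (0.0139%) in which they lay above. CG1368 on X was at 9.46 to 10.35 in ED7665 carriers and 10.46 to 11.20 in ED5071 carriers, without overlap (-0.95 ± 0.15, adjusted p = 0.000311), and wild type lay at 9.71 to 10.79.

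The ED7665 carriers of several other genes likewise overlapped wild type. Hrb87F, an hnRNP of the splicing machinery, gave 10.46 to 10.88 with ED7665, 10.34 to 11.13 in wild type and 9.35 to 10.02 with ED5071 (0.94 ± 0.11, adjusted p = 3.62e-07). mthl8, a methuselah-like receptor, gave 6.35 to 7.41, 6.49 to 7.73 and 6.0 to 6.72 in the same order (0.77 ± 0.13, adjusted p = 0.000432). CG5770 differed by -1.31 ± 0.18 (adjusted p = 2.71e-05), with ED5071 carriers above wild type, as given above. CG14715 gave 6.49 to 8.58 with ED7665, 6.55 to 6.98 in wild type and 8.31 to 9.25 with ED5071 (-1.88 ± 0.44, adjusted p = 0.0362).

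CG8745 was lower with ED5071 (8.62 to 10.61) than with ED7665 (10.69 to 11.45), and wild type lay at 10.51 to 11.20 (1.19 ± 0.19, adjusted p = 0.000277). CG4757 varied widely within both groups, from 6.09 to 9.04 with ED7665 and from 4.71 to 7.63 with ED5071 (1.64 ± 0.38, adjusted p = 0.0362). NijC, a ninjurin, was at 6.80 to 7.49 with ED7665 and 7.56 to 8.39 with ED5071 (-0.95 ± 0.21, adjusted p = 0.0274), and mat differed by -1.18 ± 0.29 (adjusted p = 0.0479). Syt7 (0.16), Zip102B (-0.15) and CG3552 (-0.00 ± 0.10), which differed from wild type above, did not pass between ED7665 and ED5071 (adjusted p = 0.999 for each).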

How the data were processed

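RNA of 44 samples was measured on 1 Affymetrix array each. The authors deposited log2 values per probe set made with RMA, a background correction, between-array normalization and probe summary, per the submitters' processing notes. Neither its version nor a build or annotation is given in the sources used here. The log2 scale was read from the range of the deposited values. No counts lie behind the values, and the number of arrays limits the precision.

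Of 18952 probe sets, 13647 had 1 gene symbol, 402 several and 4903 none, and 13537 were placed on an arm through Release 6 of the genome, used for names and gene order only. For 728 tested genes with several probe sets, the one with the highest mean was taken. Each interval was the highest-scoring run of neighbouring genes in carriers minus non-carriers over all 44 arrays (offset 0.3, limit 0.7 per gene). Its genes were left out of the tests.

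All 44 arrays entered a fit in limma 3.58.1 (R 4.3.3) with 1 indicator term per deletion, empirical Bayes moderation with a trend, and Benjamini-Hochberg adjustment over the 7193 genes outside the intervals (threshold 0.05). ED7665 was also set against the mean of the 6 other deletions and against ED5071, and a term for the 5 double carriers tested additivity. The p-values treat arrays as independent pools of flies, and those of the comparisons share carriers. The fits were tested on simulated data with independent noise and no array-number group. Levels per array are medians over genes of log2 minus the wild-type mean. Summaries and figures used Python 3.11.15, numpy 2.4.6, pandas 2.3.3 and matplotlib 3.10.9.

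The comparison, its gene lists and the rules were chosen with earlier results of these data known. The rule for named genes takes the 10 largest rises and falls that passed with and without the array-number group, the 3 largest that passed only without it, the 3 largest against the other deletions that passed in both fits, up to 3 called members per list (the text names part of these), and in the interval the ends, the 3 tested genes beyond each, and the 4 largest and 4 smallest differences. Other interval genes, Eip63E, CHKov1, CG18180, the genes from BOD1 to larp and those of the ED5071 comparison were named after their values were seen. Alternatives covered the array-number group, subsets of arrays, filters, probe sets, normalization, the prior, array weights, the replicate number as a block, and each array left out.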

Additional observations from a re-analysis of the deposited data

Results flagged for a closer look

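In 17 of 186 groups of arrays tested, 1 array lay far from the others of its group, at a limit set for 1 of 20 independent groups. The groups share arrays, and the genes from BOD1 to larp were chosen after arrays were seen to be low there. Nothing is thus read from the count of 17. Replicate 2 of Df(3R)ED7665/+ was low at -0.56 in the median of the 10 genes from BOD1 to larp, where the nearest other carrier was at -0.01. In the same array BOD1 was at 6.0 (nearest carrier 6.63), CG4884 at 6.60 (7.24) and larp at 9.98 (10.71). Wild-type replicate 4 was low in the median of the same 10 genes at -0.27 (nearest 0.01), short of -0.56, and in larp at 9.84 (10.34). That array was also low in the median of the ED7665 interval genes, at -0.37, so its fall was not particular to this region.

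Among the ED7665 carriers, the array with ED10953 was low in Jon99Fi at 10.99 (nearest 12.19) and the array with ED3 low in orb at 9.70 (10.44). The array with ED1770 was high in DptB at 9.57 (8.06) and low in mthl8 at 6.35 (7.04). The array with ED1612 was high in hep at 8.59 (8.37), and the array with ED4559 high in CG14715 at 8.58 (7.04).

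Among the wild-type arrays, replicate 4 was high in NimC3 at 6.45 (nearest 5.78) and low in Cyp4e1 at 6.96 (7.74) and CG1368 at 9.71 (10.56). Replicate 6 was high in MtnB at 9.0 (8.08), and replicate 5 high in CG18748 at 7.62 (7.10).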

How the results depend on the processing

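The count of genes changed with ED7665 (1355) moved to 20 with the array-number group, 4 with arrays numbered from 27 only, 78 without wild type, 2186 without wild-type replicates 4 and 5, 707 with no single ED7665 array, 1 with no double ED7665 array, 2 with single-deletion and wild-type arrays only and 4583 with array weights. Alternatives added after seeing the data gave 2107 with a term for the 7 arrays low from BOD1 to larp, 2265 without these, 45 with the array-number group and the germline list mean, and 1 with the array-number group and the 7 arrays. Leaving out each array gave 672 to 1795. In the same order, the count against the other deletions (844) moved to 17, 1 and 1377 (array-number group, from 27, no wild type), then to 203, 1, 1 and 3778 (no single, no double, single and wild type only, array weights), and to 1639, 47 and 1 (without the 7 arrays, group and germline, group and 7 arrays), with 248 to 1161 on leaving out each array. The count against ED5071 (31) moved to 63, 61 and 49, to 80 with the germline mean, to 14, 2, 1 and 311, to 62 with the term for the 7 arrays, and to 176 and 68, with 17 to 41 on leaving out each array. The count of departures from additivity was 0 in every setting in which it was run, and could not be fitted with single and wild-type arrays only or with no single or no double ED7665 array. The interval median (-0.88) moved to -0.96 with the array-number group and -0.62 with no filter, and lay between -0.91 and -0.86 on leaving out each array. Where no value above shows it, the cause was not tested.

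The replicate numbers were not taken to pair the samples: deviations of arrays with the same number correlated between -0.533 and 0.32. With the replicate block, single-deletion and wild-type arrays gave 2363 genes changed, 12 against the other deletions and 3 against ED5071, and wild-type replicates 4 to 6, with numbers of their own, then add nothing. CG40298 reversed to -0.25 under this block, and hep to -0.16 with the mean of its probe sets.

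Other additive coefficients of genes named in the report changed sign in fits with the array numbers. With the array-number group these were CG7878 -0.07, Cpr49Ac 0.01, Fbp2 0.41, GstD10 0.02, Lsp2 0.27, Obp99b 0.45, mRpL51 0.12, mRpS33 0.05, msl-3 -0.03, nSyb 0.31, orb -0.05 and piwi -0.20. From 27 only, CG7878 -0.11, Fbp2 0.20, Jon65Ai -0.04, Jon99Fi -0.09, Lsp2 0.10, NimC4 0.11, Obp99b 0.27, foi -0.01, mRpL51 0.15, mRpS33 0.06, nSyb 0.34, orb -0.17 and piwi -0.22 did so. With the group and the germline mean, CG7878 -0.06, Fbp2 0.40, GstD10 0.04, Lsp2 0.28, Obp99b 0.46, mRpL51 0.12, mRpS33 0.03, msl-3 -0.02, nSyb 0.28 and piwi -0.15 did. With the group and the 7 arrays, CG13962 0.38, CG15369 0.18, CG43133 0.19, Cpr49Ac 0.44, Cyp309a1 0.46, DptB 0.04, Drsl2 0.04, Fbp2 0.92, GstD10 0.44, Lsp2 0.77, NijC 0.01, NimC2 0.18, NimC3 -0.05, NimC4 0.24, Obp99b 0.79, msl-3 -0.15 and piwi -0.10 did. Of the other values of genes and lists, 7090 stayed on their side of the threshold or within the spread, 459 lost the call, 61 gained one and 114 moved.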
